A study of Homo sapiens with 18 samples.

Results

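GR binding regions (GBR, the places where a ChIP-seq peak of the glucocorticoid receptor was called) were examined around the 6 genes of the C/EBP family, CEBPA, CEBPB, CEBPD, CEBPE, CEBPG and DDIT3. A GBR was assigned to a gene when its summit lay within 100 kb of the transcription start site (TSS) of the gene's canonical GENCODE transcript in GRCh38. Over the 6 peak lists of the study this gave 28 of 20642 called peaks, which overlap into 12 distinct GBR. The 6 siRNA combinations were compared in U2OS-GRα cells, a human osteosarcoma line that carries a stably introduced GRα: non-specific siRNA (siNS/siNS), depletion of the coregulator Hic-5 (siHic5/siNS), of the chromatin remodeler CHD9 (siCHD9/siNS) or of the remodeler BRM (siBRM/siNS), and the joint loss of CHD9 and Hic-5 (siCHD9/siHic5) or of BRM and Hic-5 (siBRM/siHic5). All cells received 100 nM dexamethasone (dex), a synthetic glucocorticoid, for 1 h, so no list describes cells without hormone. Each combination had 2 ChIP libraries and 1 input library, 12 and 6 in all, and each peak list combines the ChIP replicates. There is therefore 1 list per combination, with no spread between replicates, and no difference between conditions was tested here. The study itself compared GR occupancy between conditions with DiffBind, and the results of those tests were not used here.

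C/EBP proteins are basic leucine zipper transcription factors. They bind DNA as dimers with each other and with related zipper proteins. CEBPA is known for driving the differentiation of granulocytes, adipocytes and hepatocytes. CEBPB and CEBPD act in the acute-phase and interleukin-6 response and early in fat cell differentiation, and both are known to respond to glucocorticoids in several cell types. CEBPE acts late in granulocyte maturation. CEBPG has little activating capacity of its own and serves mainly as a dimer partner, and DDIT3, also called CHOP, is a stress-induced member whose dimers with other C/EBP proteins do not bind the usual C/EBP site. The peak lists report where GR was bound, not how strongly any gene was transcribed, and the degree of depletion by each siRNA cannot be read from them.

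The lists held between 1278 (siBRM/siNS) and 9533 (siHic5/siNS) GBR. Their lowest −log10 q-value ran from 7.26 in siBRM/siNS to 14.2 in siBRM/siHic5. The authors used the IDR (Irreproducibility Discovery Rate) framework, so list length may also depend on agreement between replicates. The files give no read count for a peak or a library. The study states its sequencing depth as a range over samples and shows total raw reads for the duplicate samples of each condition in a figure. Neither was used here, and −log10 p-values were ranked only within a list. Where a list holds no peak, GR may have been bound too weakly to pass its cutoff, or a peak may have differed between replicates. In bulk chromatin, GR binding in fewer cells and weaker binding per cell cannot be told apart.

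The GBR that carry the account are shown first, as the 200 bp of GRCh38 plus strand around the siHic5/siNS summit. They were chosen to show CEBPB GBR called in different sets of lists, and for CEBPE and DDIT3 a GBR called in siHic5/siNS only. Capitals mark matches to the glucocorticoid response element (GRE, the DNA element that a GR dimer contacts). The CEBPB GBR at 34.3 kb (chr20:50225054-50225253) was called in all 6 lists, that at 52.4 kb (chr20:50243119-50243318) in 4 and that at 88.3 kb (chr20:50279041-50279240) in 3. The GBR of CEBPE (chr14:23154029-23154228) and of DDIT3 (chr12:57522458-57522657) were called after depletion of Hic-5 alone.
CEBPB 34.3 kb downstream: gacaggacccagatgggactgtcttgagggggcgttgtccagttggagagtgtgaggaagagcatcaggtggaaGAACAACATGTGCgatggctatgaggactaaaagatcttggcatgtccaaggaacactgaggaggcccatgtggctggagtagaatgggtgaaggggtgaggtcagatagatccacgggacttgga
CEBPB 52.4 kb downstream: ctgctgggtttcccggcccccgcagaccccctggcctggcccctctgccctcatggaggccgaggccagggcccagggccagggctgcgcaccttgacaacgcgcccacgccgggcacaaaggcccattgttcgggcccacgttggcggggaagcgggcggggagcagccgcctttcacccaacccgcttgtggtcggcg
CEBPB 88.3 kb downstream: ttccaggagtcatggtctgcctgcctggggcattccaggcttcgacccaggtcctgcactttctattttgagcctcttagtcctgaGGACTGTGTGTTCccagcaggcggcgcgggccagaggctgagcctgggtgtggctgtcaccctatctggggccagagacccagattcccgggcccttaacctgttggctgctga
CEBPE 34.9 kb upstream: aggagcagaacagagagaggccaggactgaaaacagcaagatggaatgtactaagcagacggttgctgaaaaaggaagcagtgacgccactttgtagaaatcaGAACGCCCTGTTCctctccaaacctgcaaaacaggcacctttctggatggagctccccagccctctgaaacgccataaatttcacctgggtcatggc
DDIT3 2.04 kb upstream: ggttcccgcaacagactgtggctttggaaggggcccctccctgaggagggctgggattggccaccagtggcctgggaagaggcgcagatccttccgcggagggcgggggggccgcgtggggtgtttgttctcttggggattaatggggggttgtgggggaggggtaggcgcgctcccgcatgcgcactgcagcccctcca

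After depletion of Hic-5 there were 12 GBR near the family, 6 at CEBPB, 3 at CEBPE, 2 at CEBPD and 1 at DDIT3. No GBR of any list lay within 100 kb of CEBPA or CEBPG. In siNS/siNS there were 4 GBR, 3 at CEBPB and 1 at CEBPD, and all 4 were among the 12. There were 3 GBR in siCHD9/siNS, 2 in siBRM/siNS, 2 in siCHD9/siHic5 and 5 in siBRM/siHic5. These counts depend on list length and cutoff. Among the 1000 strongest peaks of each list there were 3 in siNS/siNS and 2 in each of the other 5 lists. The excess in siHic5/siNS was not present there, but that cut drops most GBR of this longest list. With 1 −log10 q-value cutoff of 14.2 for all lists there were 12 in siHic5/siNS and 3 in siNS/siNS. At a cutoff of 20 there were 8 and 3. The q-values also depend on depth. Over the full lists CEBPB and CEBPD were the members with a GBR in every list, whereas CEBPE and DDIT3 had one in siHic5/siNS only.

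Of the 12 siHic5/siNS GBR, 8 were not called in siNS/siNS (66.7%, 95% exact binomial interval 34.9 to 90.1%, which covers counting error only). Over all siHic5/siNS GBR this share was 74.0%. No overlapping peak was found in siCHD9/siHic5 for 10 of the 12 (83.3%, 51.6 to 97.9%), against 75.4% of all, and none was found in siBRM/siHic5 for 7 (58.3%, 27.7 to 84.8%), against 65.4% of all. In the lists with Hic-5 present, 9 of the 12 had no peak in siCHD9/siNS (75.0%, 42.8 to 94.5%), against 85.5% of all, and 10 had none in siBRM/siNS (83.3%), against 86.9% of all. There were 7 GBR without a call in any other list, or 58.3%, against 58.7% of all siHic5/siNS GBR, and 2 called in all 6 lists, or 16.7%, against 9.25%. For each of these counts the share over all GBR lay inside the interval of the family. With so few GBR, several of them at a single gene, the counts describe the family, and no difference from the remaining GBR was read from them.

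The 4 siNS/siNS GBR were all called again in siHic5/siNS, where 3.18% of all siNS/siNS GBR had no overlapping peak, and in siBRM/siHic5, where 16.6% had none. Of the 4, 1 was absent from siCHD9/siNS (51.4% of all siNS/siNS GBR), 2 from siCHD9/siHic5 (34.2%) and 2 from siBRM/siNS (52.2%). The GBR absent from siCHD9/siNS was that of CEBPB at 88.3 kb, and those absent from the other 2 lists were that one and the CEBPB GBR at 52.4 kb.

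**Figure D1:**
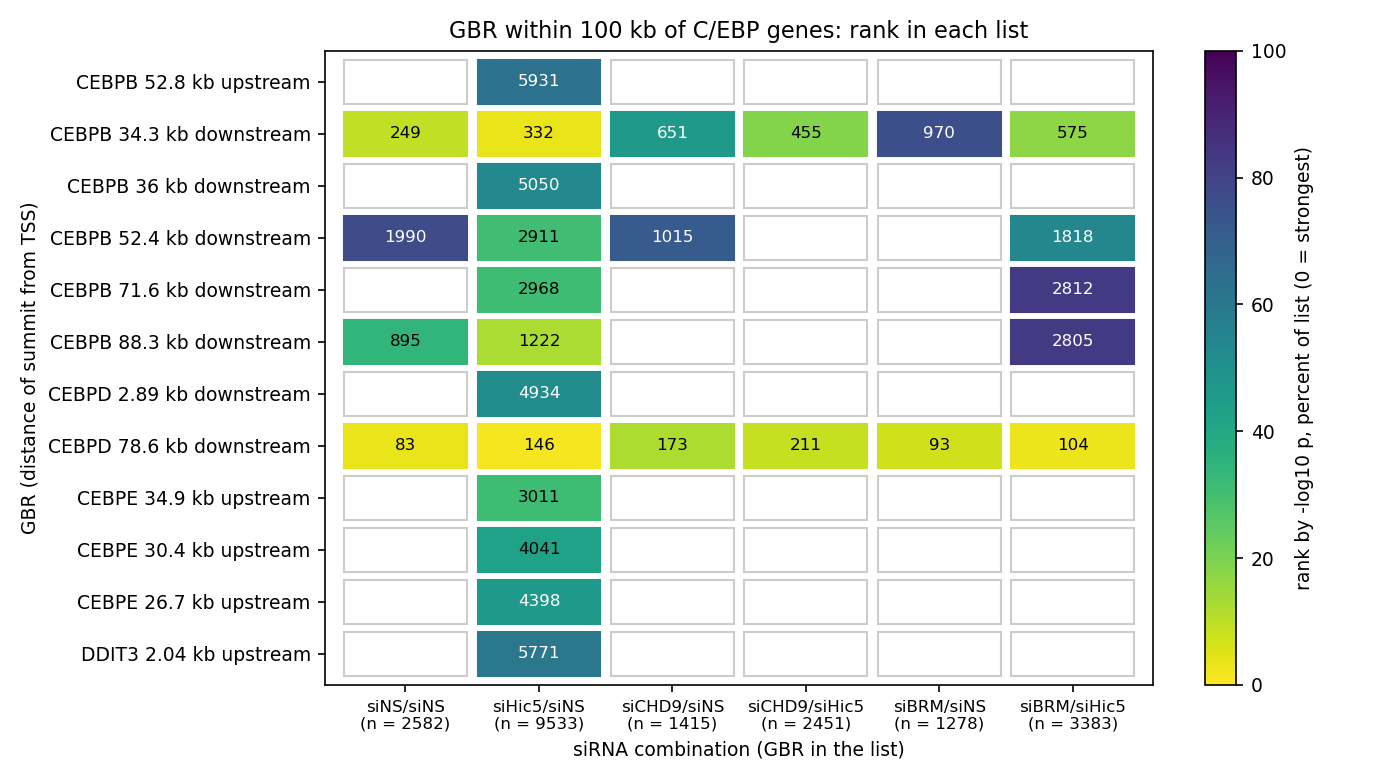
Rows are the 12 GBR within 100 kb of a C/EBP gene and columns the 6 siRNA combinations. A filled cell is a called GBR with its rank by −log10 p-value in that list (colour: rank as percent of the list), and an open cell is no call. The CEBPB GBR at 34.3 kb and the CEBPD GBR at 78.6 kb are filled in all 6 columns, and 7 GBR are filled in siHic5/siNS only.

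CEBPB (ENSG00000172216.6) lies on the plus strand of chromosome 20 from 50190830 to 50192668. Its 6 siHic5/siNS GBR placed it among the 309 of 20007 protein-coding genes (1.54%) with at least as many. Of those genes, 8728 (43.6%) had any siHic5/siNS GBR within 100 kb. In siNS/siNS, with 3 GBR at CEBPB, 1.56% of genes had at least as many, and in siBRM/siHic5, with 4, it was 0.725%. In siCHD9/siHic5 CEBPB had 1 GBR, and 16.4% of genes had at least 1. No other protein-coding gene had the same 6 counts as CEBPB. How many genes have a set of 6 counts shared with no other was not determined, so this was not read as a trait of CEBPB. Of the 6 GBR, 5 lay downstream of the gene, between 34.3 and 88.3 kb from its TSS, and CEBPB had the nearest protein-coding TSS to each of those 5.

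The GBR 34.3 kb downstream of the CEBPB TSS (chromosome 20, 50224613 to 50225500 in siHic5/siNS) is intergenic and was the strongest of the 6. Its −log10 p-value was 61.1 in siNS/siNS, 118.7 in siHic5/siNS, 20.4 in siCHD9/siNS, 43.1 in siCHD9/siHic5, 13.8 in siBRM/siNS and 73.9 in siBRM/siHic5. These values depend on depth, and their order between lists was not read. The 6 summits fell within 51 bp. Within its list the GBR ranked 249 of 2582 in siNS/siNS and 332 of 9533 in siHic5/siNS, but 651 of 1415 in siCHD9/siNS and 970 of 1278 in siBRM/siNS. In the double depletions it ranked 455 of 2451 (siCHD9/siHic5) and 575 of 3383 (siBRM/siHic5). It was therefore in the upper part of the list in cells with both remodelers and also in both double depletions. The GBR stood near the middle of the list after depletion of CHD9 alone and in the lower part after depletion of BRM alone. In siBRM/siNS its −log10 q-value of 9.58 was below the 14.2 at which the siBRM/siHic5 list began. The lists differ in length and cutoff, so no change was read from these ranks.

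To compare ranks over the same GBR, the 882 siHic5/siNS GBR with a call in every other list were ordered by −log10 p-value in each list. The CEBPB GBR at 34.3 kb was then 244th in siNS/siNS, 312th in siHic5/siNS, 568th in siCHD9/siNS, 402nd in siCHD9/siHic5, 773rd in siBRM/siNS and 513th in siBRM/siHic5. Its place was lower after loss of either remodeler alone than with Hic-5 depleted as well, and highest in siNS/siNS. The CEBPD GBR at 78.6 kb, drawn in the same plot of ranks, moved less, between 81st and 203rd. Each rank comes from a pooled list, so whether these shifts exceed the spread between replicates was not tested.

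**Figure D2:**
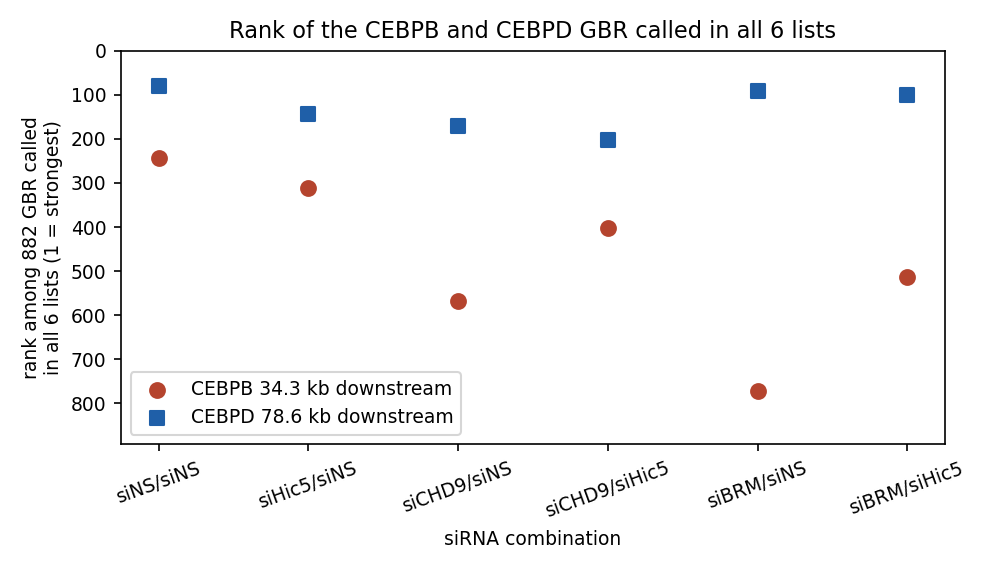
Rank by −log10 p-value (vertical axis, strongest at the top) of the CEBPB GBR at 34.3 kb (circles) and the CEBPD GBR at 78.6 kb (squares) among the 882 GBR called in all 6 lists, for each siRNA combination (horizontal axis). The CEBPD GBR stays between 81 and 203, while the CEBPB GBR runs from 244 in siNS/siNS to 773 in siBRM/siNS.

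A second GBR, 52.4 kb downstream of CEBPB (50242893 to 50243574), is also intergenic. It was called in siNS/siNS, siHic5/siNS, siCHD9/siNS and siBRM/siHic5, and was absent from siBRM/siNS and siCHD9/siHic5. With CHD9 depleted the call was thus present beside Hic-5 and absent without Hic-5, and with BRM depleted it was absent beside Hic-5 and present without it. Only 28 of the 9533 siHic5/siNS GBR (0.294%) had this set of calls. It ranked 1990 of 2582 in siNS/siNS and 1015 of 1415 in siCHD9/siNS, with −log10 q-values of 11.6 and 10.4, both below the 14.2 at which the siBRM/siHic5 list began. With 1 cutoff of 14.2 for all lists, the GBR would be called in siHic5/siNS and siBRM/siHic5 alone.

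The GBR 88.3 kb downstream (50278820 to 50279371) has its summit in an exon of PELATON, a long non-coding RNA gene on the plus strand. Its −log10 p-value was 27.7 in siNS/siNS, 60.3 in siHic5/siNS and 21.4 in siBRM/siHic5, and it was called in neither list with CHD9 depleted nor in siBRM/siNS. The same calls were found at 3.64% of siHic5/siNS GBR. It ranked 895 of 2582 in siNS/siNS, 1222 of 9533 in siHic5/siNS and 2805 of 3383 in siBRM/siHic5, lists of different length and cutoff, so no change was read from these ranks. The GBR 71.6 kb downstream (50262243 to 50262677) lies in an intron of PELATON. It was called in siHic5/siNS (−log10 p-value 31.9) and siBRM/siHic5 (21.3), both with Hic-5 depleted, and not in siCHD9/siHic5. This set of calls was found at 7.91% of siHic5/siNS GBR.

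The 2 remaining GBR of CEBPB were called in siHic5/siNS only. That at 36.0 kb downstream (50226446 to 50227100, −log10 p-value 21.2) is intergenic, with its summit 1.63 kb from that of the GBR at 34.3 kb. That at 52.8 kb upstream (50137707 to 50138398, −log10 p-value 18.6) lies in an intron of PEDS1 and of the PEDS1-UBE2V1 readthrough gene, whose TSS is nearer to it, at 15.6 kb, than that of CEBPB. The weakest of the 6 in siHic5/siNS was thus the one upstream of the gene. The limit of 100 kb cut through the downstream group, the last GBR inside it being the one at 88.3 kb (rank 1222) and the first beyond it one at 102 kb (rank 5379), which was called in siHic5/siNS only.

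**Figure D3:**
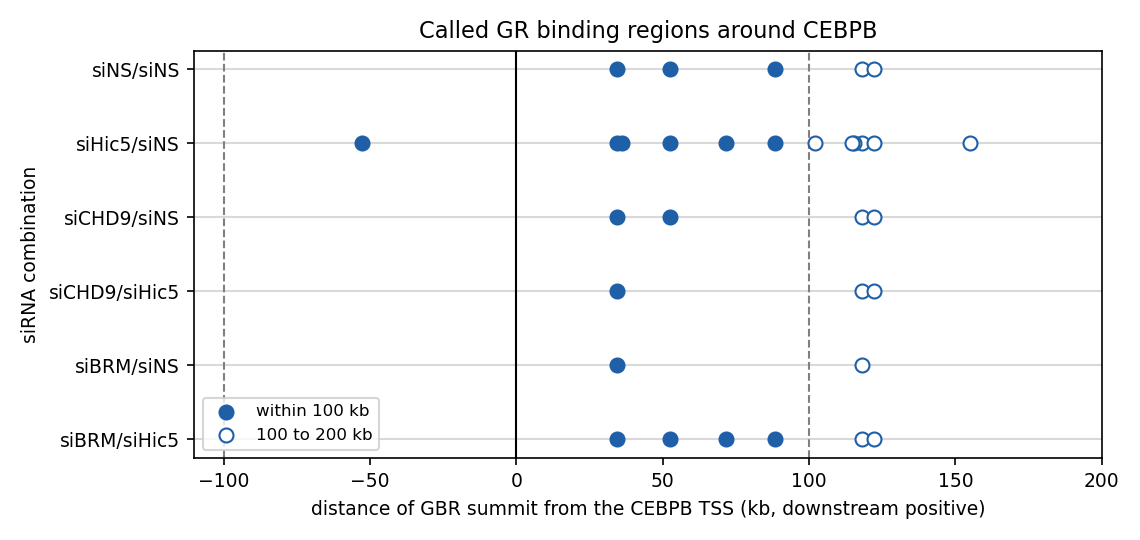
Summits of called GBR (points) by distance from the CEBPB TSS in kb (horizontal axis, downstream positive) for each siRNA combination (rows). Filled points lie within 100 kb (dashed lines) and open points lie 100 to 200 kb away. Filled points number 3, 6, 2, 1, 1 and 4 from the top row to the bottom, and the one at 34.3 kb is present in every row.

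CEBPD (ENSG00000221869.5) spans 47736913 to 47738164 of chromosome 8 (minus strand), and no other protein-coding TSS lay within 100 kb of its own. The GBR 78.6 kb downstream (47659082 to 47659908 in siHic5/siNS) is in an intron of SPIDR, a DNA repair gene on the opposite strand, and was the strongest GBR of the family in every list. Its −log10 p-value was 111.6 in siNS/siNS, 164.5 in siHic5/siNS, 46.3 in siCHD9/siNS, 71.4 in siCHD9/siHic5, 60.2 in siBRM/siNS and 191.8 in siBRM/siHic5. It stayed within the top 12.2% of each list, ranking 83 of 2582, 146 of 9533, 173 of 1415, 211 of 2451, 93 of 1278 and 104 of 3383 in the same order. The 6 summits fell within 11 bp. The other GBR of CEBPD, 2.89 kb downstream of its TSS and beyond the end of the gene (47735085 to 47735475), had a −log10 p-value of 21.7, ranked 4934 and was called in siHic5/siNS only. It was the GBR nearest to CEBPD and, at 391 bp, the narrowest of the 12.

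CEBPE (ENSG00000092067.7) is transcribed from the minus strand of chromosome 14, between 23117036 and 23120256. It had 3 GBR in siHic5/siNS, where 11.4% of protein-coding genes had at least 3, and none within 100 kb in the other lists, where the nearest GBR was 311.5 kb away (siNS/siNS) or within 1 kb of that distance. They were 26.7 kb (23145749 to 23146329), 30.4 kb (23149460 to 23150025) and 34.9 kb (23153923 to 23154559) upstream, spaced by 3.73 and 4.45 kb. All 3 lie in introns of SLC7A8, which encodes an amino acid transporter, and the SLC7A8 TSS was the nearest to the farthest of them, at 29.5 kb. Their −log10 p-values were 23.9, 25.5 and 31.7, which placed them 4398th, 4041st and 3011th. None of the 3 was among the 2859 strongest GBR of the list. Within 100 kb of the CEBPE TSS there were 7 other protein-coding TSS, and which gene these GBR act on cannot be read from the lists.

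DDIT3 (ENSG00000175197.13) is a minus-strand gene of chromosome 12 (57516588 to 57521737). Its GBR (57522187 to 57522985) has its summit 2.04 kb upstream of the canonical TSS and 0.266 kb from the TSS of MBD6, in an intron of that gene, which runs in the opposite direction and encodes a methyl-CpG-binding domain protein. It was called in siHic5/siNS only, with a −log10 p-value of 18.8 and rank 5771. In the other lists no GBR was near DDIT3, the closest being 790 kb away in siCHD9/siHic5, 795 kb in siBRM/siHic5 and 1672 kb in the 3 lists with Hic-5 present. Within 100 kb of DDIT3 there were 14 other protein-coding TSS.

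CEBPA (ENSG00000245848.3, chromosome 19, 33299934 to 33302534, minus strand) and CEBPG (ENSG00000153879.9, 33373685 to 33382686, plus strand) are neighbors whose TSS lie 71.2 kb apart. The nearest siHic5/siNS GBR was 278.2 kb from the CEBPA TSS and 207.0 kb from that of CEBPG. In each of the other 5 lists it was 1827 kb from CEBPA and 1756 kb from CEBPG. Of the 20007 protein-coding genes, 11279 likewise had no siHic5/siNS GBR within 100 kb.

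**Figure D4:**
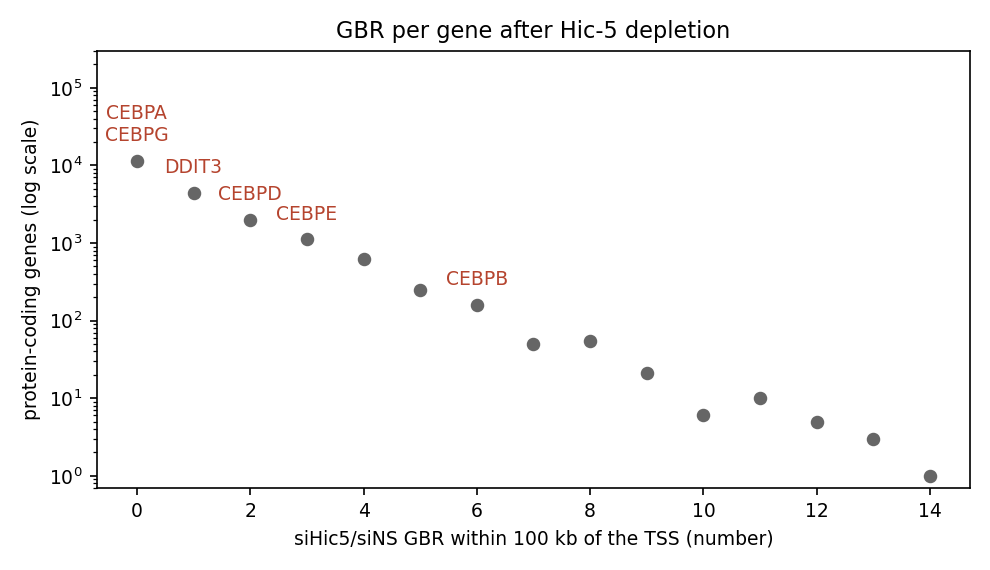
Number of protein-coding genes (vertical axis, log scale) by the number of siHic5/siNS GBR within 100 kb of the TSS (horizontal axis). CEBPA and CEBPG stand with 11279 genes that had none, DDIT3, CEBPD and CEBPE with those that had 1, 2 and 3, and CEBPB with the 158 genes that had 6.

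The GBR called in another list were the stronger ones in siHic5/siNS. The 5 GBR called in another list ranked between 146 and 2968 with a median of 1222, and the 7 called in siHic5/siNS only ranked between 3011 and 5931 with a median of 4934. The 2 sets did not overlap, but among the 5 the rank did not follow the number of lists, the CEBPB GBR at 88.3 kb (3 lists) standing before that at 52.4 kb (4 lists). To see the same over the whole list, it was split by rank into 10 bins of equal size. The share of GBR called nowhere else was 0.210% in bin 1, the strongest, 48.6% in bin 4, which holds 3 of the 12, and 84.8% in bin 7, which holds 2. In bin 1, 69.8% of GBR were called in all 6 lists, and both C/EBP GBR there, at CEBPB and CEBPD, were among them. In bin 2, 33.3% were called in siCHD9/siNS, 59.6% in siCHD9/siHic5 and 87.6% in siBRM/siHic5, and its only C/EBP GBR, that of CEBPB at 88.3 kb, was called in siBRM/siHic5 of these. None of the 12 fell in bins 8 to 10. Median width was 637 bp for the 7 and 682 bp for the 5, against 506 bp over all siHic5/siNS GBR, weakest bins included. Width was not compared at like rank, so no difference in width was read.

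**Figure D5:**
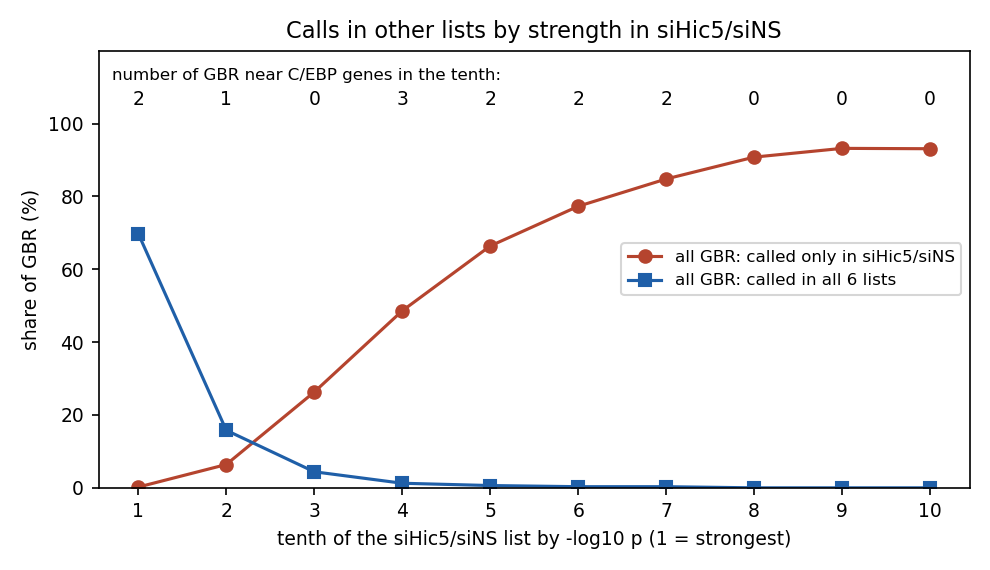
Share of all siHic5/siNS GBR (vertical axis, percent) called in no other list (circles) or in all 6 lists (squares), by bin of the list from strongest (1) to weakest (10, horizontal axis). Numbers along the top count the GBR near C/EBP genes in each bin, and all 12 lie in bins 1 to 7, where the share called only in siHic5/siNS rises from 0.210% to 84.8%.

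Sequence matches were counted on both strands of the 200-bp window around each siHic5/siNS summit. The GRE was searched as GNACA and TGTNC with 3 bases between them and at most 1 mismatch at the 8 defined bases, AP-1 (the element of FOS and JUN proteins) as TGAGTCA, C/EBP as TTNCGNAA and ETS as CNGGAAGT. A GRE match was present in 9 of the 12 GBR (75.0%, 95% exact binomial interval 42.8 to 94.5%), against 60.0% of all siHic5/siNS GBR and 6.29% of windows 5 kb to either side of the summits. Exact matches, with no mismatch, were found in 2 GBR, against 17.6% of all, and these were the CEBPB GBR at 34.3 kb and the CEBPD GBR at 78.6 kb. Both were called in all 6 lists, but the share of exact matches among all GBR with such calls was not counted. No link between the match and the calls was read from 2 GBR. In the first of the printed sequences the exact match starts at 50225128 and its middle lies 20 bp from the summit, and in the CEBPD GBR the middle lies 9 bp from the summit.

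The 3 GBR without a GRE match in the window were the CEBPB GBR at 36.0 kb and at 52.4 kb and that of DDIT3. The windows at 52.4 kb and at DDIT3 were the richest in G and C of the 12, with a GC content of 73.5% and 68.0%, against a median of 53.5% over the 12 and 48.5% over all siHic5/siNS GBR. At CEBPE each GBR held at least 1 GRE match with 1 mismatch. An AP-1 match was found in 1 of the 12 GBR, the CEBPB GBR at 71.6 kb, and such matches occurred in 19.4% of all GBR and 3.37% of windows to either side. No window near the family held a C/EBP or an ETS match, which were present in 1.86% and 6.72% of all GBR. In a wider window of 1000 bp, an AP-1 match was found in 4 of the 12 (33.3%, against 37.1% of all), an ETS match in 1 (8.33%, against 18.3%) and a C/EBP match in 0 (against 5.32%). A GRE match was found there in 9 of the 12 (75.0%), against 71.4% of all and 29.2% of windows to either side. A match is a description of the sequence, and its absence says only that these letters are not in the window.

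A further 2 groups of genes in the same pathways were counted in the same way. Of 23 genes that act in the stress response around DDIT3 or that control C/EBP proteins, 10 had a siHic5/siNS GBR within 100 kb (43.5%, against 43.6% of all protein-coding genes), 3 a siNS/siNS GBR (13.0%, against 17.0%), 3 a siCHD9/siHic5 GBR (against 16.4%) and 5 a siBRM/siHic5 GBR (21.7%, against 22.2%). In siCHD9/siNS and in siBRM/siNS it was 1 gene each, against 10.5% and 9.93%. The genes with the strongest siHic5/siNS GBR were DDIT4, TRIB1 and EIF2AK3. At DDIT4, an inhibitor of mTORC1 signaling, a GBR 24.9 kb upstream ranked 25 and was called in all 6 lists. At TRIB1, a pseudokinase that directs C/EBPα to degradation, the strongest of 9 siHic5/siNS GBR lay 96.2 kb upstream, ranked 1013 and was called besides in siBRM/siHic5. TRIB1 had 2 GBR in siBRM/siHic5, 1 in siCHD9/siHic5 and none in siNS/siNS, siCHD9/siNS or siBRM/siNS. DDIT4 also had 9 siHic5/siNS GBR, but 7 in siNS/siNS. Of all protein-coding genes, 21 had exactly 9 siHic5/siNS GBR. At EIF2AK3, the stress kinase PERK, a GBR 13.3 kb downstream ranked 2052 and was called in the same 3 lists as the CEBPB GBR at 88.3 kb. ATF3 and ATF4, zipper proteins of the same response, had no GBR within 100 kb in any list.

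Of 13 genes of the interleukin-6 and acute-phase response, in which CEBPB and CEBPD act, 11 had a siHic5/siNS GBR (84.6%, against 43.6% of all protein-coding genes) and 7 a siNS/siNS GBR (53.8%, against 17.0%). There were 6 in siCHD9/siNS, siCHD9/siHic5 and siBRM/siHic5 (46.2% each, against 10.5%, 16.4% and 22.2%) and 5 in siBRM/siNS (38.5%, against 9.93%). SAA1 and SAA2 share their GBR, and ORM1 and ORM2 share their strongest, so these genes are not independent. The strongest GBR were those of IL6R, the interleukin-6 receptor (13.1 kb downstream, rank 266), of CRP, C-reactive protein (65.1 kb upstream, rank 496), both called in all 6 lists, and of IL1B, interleukin-1 beta (99.6 kb upstream, rank 687), called in every list except siBRM/siNS. IL6 itself and HP had none. The median number of siHic5/siNS GBR was 1 for this group and 0 over all protein-coding genes. No test was run on either group, whose members were picked by function with results of these data known.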

How the data were processed

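GR ChIP-seq reads of U2OS-GRα cells were trimmed by the authors, mapped with BWA to GRCh38/hg38 and freed of duplicate and mitochondrial reads. Peaks were called with MACS2 and the IDR framework, and each list was taken here as one of pooled replicates. The versions and the IDR threshold are not given in the sources used here. Each deposited list gives the position and summit of each peak (bp), a peak score, a signal value (a fold enrichment ratio in the MACS2 format, not used here), and its −log10 p-value with the matching −log10 q-value, both computed by the authors. No peak ended beyond its GRCh38 chromosome (0 in each list). The conditions were taken from the sample titles, and the 6 input libraries have no list of their own here.

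Canonical TSS came from GENCODE release 44 (20007 protein-coding genes). Peaks were matched by an overlap of at least 1 bp and ranked by −log10 p-value within a list. Shares carry exact (Clopper-Pearson) 95% binomial intervals. Coordinates count from 1. The genes named were all 6 members, every GBR within 100 kb of them, and the 3 genes with the strongest siHic5/siNS GBR in each of 2 pathway lists; other pathway genes were named after their values were seen. Members and lists were chosen with earlier results of these data known, and no set test was run. Overlap counting and motif search were tested on simulated data. Alternatives were other windows, TSS, peak positions, thresholds, overlap rules and motif windows. Python 3.11.15, NumPy 2.4.6, SciPy 1.17.1, pandas 2.3.3, pysam 0.24.0, Matplotlib 3.10.9, samtools 1.23.1 and bedtools 2.31.1 were used.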

Additional observations from a re-analysis of the deposited data

How the results depend on the processing

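Of 76 alternative values, 54 stayed within 1.5 times of the reported count or within the interval of the reported share. Among them was every value with any annotated TSS, with any part of the peak in place of the summit, and with the 3 other rules for matching peaks. GBR absent from a list were compared as counts, although the number of siHic5/siNS GBR changes with the window and threshold. Whether these counts were stable as shares was not tested. With a window of 50 kb there were 7 GBR in siHic5/siNS and 1 in each of siNS/siNS, siCHD9/siNS, siCHD9/siHic5, siBRM/siNS and siBRM/siHic5. Of those 7, 6 were absent from siNS/siNS, 6 from siCHD9/siHic5 and 6 from siBRM/siHic5. At 200 kb there were 18 in siHic5/siNS, 5 in siCHD9/siNS and 4 in siCHD9/siHic5, and 11 of the 18 were absent from siBRM/siHic5. At a −log10 q-value of at least 20 there were 8 in siHic5/siNS, 3 in siNS/siNS, 1 in siCHD9/siNS, 1 in siBRM/siNS and 3 in siBRM/siHic5. Of those 8, 5 were absent from siNS/siNS and 6 from siCHD9/siHic5. With the common cutoff of 14.2 there were 12 in siHic5/siNS, 3 in siNS/siNS and 1 in siBRM/siNS. With the 1000 strongest peaks of each list there were 2 in siHic5/siNS and 2 in siBRM/siHic5, against 3 in siNS/siNS, which turned the order of siHic5/siNS and siNS/siNS, and 0 were absent from siNS/siNS, siCHD9/siHic5 or siBRM/siHic5. Exact GRE matches were found in 16.7%. These alternatives drop or add GBR by construction. Leaving out a replicate was not possible with pooled lists. No paired analysis was possible because each list combines the replicates and carries no replicate number.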

Other observations

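The downstream group of GBR at CEBPB went on past the limit of 100 kb. Between 100 and 200 kb from its TSS there were 6 more siHic5/siNS GBR, all downstream, at 102, 114.7, 115.4, 118.1, 122.2 and 155.0 kb. The GBR at 118.1 kb (chromosome 20, 50308397 to 50309510) ranked 930 of 9533 and was called in all 6 lists, and that at 122.2 kb (50312745 to 50313385) ranked 1989 and was called in every list except siBRM/siNS. The other 4, with ranks from 3682 to 8021, were called in siHic5/siNS only. Counted out to 200 kb, CEBPB had 12 siHic5/siNS GBR, and 0.515% of protein-coding genes had at least as many. In siNS/siNS the count was 5 and in siBRM/siHic5 it was 6. None of the other 5 members gained a GBR in any list between 100 and 200 kb.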
